A study of Homo sapiens with 12 samples.

Results

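ABC transporters, membrane proteins that use ATP to move substrates, were described across 12 microarrays of the established human melanoma lines A375 and A2058. The family was taken as every gene with a single-symbol probe set whose symbol is ABC, a subfamily letter from A to G and a number. This gave 42 of the 18404 named genes on the array, 1 probe set each. The members were chosen by symbol, not by their values, although earlier results of these data were known. Some genes with such symbols were not analysed here. The 4 groups, each of 3 arrays, were A375 with vemurafenib, A375 with DMSO, A2058 with vemurafenib and A2058 with DMSO. Vemurafenib blocks the mutant form of the kinase BRAF, and both lines are labelled with the same BRAF mutation. The drug was given at 1 µM for 72 h and renewed every 24 h, and controls had an equal volume of the solvent DMSO. This treatment text stands on all samples but names only A375p cells, so its dose and time are taken as shared by A2058. Each line stands for 1 tumour-derived culture, and nothing says that the triplicates came from separate cultures, so p-values measure the spread between these arrays, which may be technical.

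Proteins of this family pair membrane-spanning segments with cassettes that bind and hydrolyse ATP. Several members of subfamilies B, C and G export drugs and their glutathione or glucuronide conjugates and are known for multidrug resistance, while most of subfamilies A and D and several of G move lipids between membrane leaflets, onto acceptors or into peroxisomes. Others sit in mitochondria or lysosomes or serve as channel subunits, and those of subfamilies E and F have no membrane segment and act in translation. In pigment cells ABCB5 is known as a melanoma antigen tied to drug-tolerant subpopulations.

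Values are the authors' log2 expression values. A change is the log2 difference between group means, with its SE taken from limma fitted over all genes. A gene was called at a Benjamini-Hochberg adjusted p under 0.05. Arrays of a group correlated at r = 0.9978 to 0.9989 across genes, except that A375 vemurafenib replicate 1 reached only 0.9939 and 0.9941 with replicates 2 and 3. In 17 of the 42 genes the mean over 12 arrays lay at or below 4.81, the lower quartile of all genes. There the scale may be compressed and differences understated, which was not tested. These include ABCB1, ABCB5, ABCG2 and ABCG1. Levels of different genes are not compared here, since each probe set has its own response. The labelled cell type was checked on 7 measured melanocyte markers. Their mean per array was 6.88 to 6.97 in A375 vemurafenib and 6.55 to 6.65 in A375 DMSO, and 9.95 to 9.97 in A2058 vemurafenib and 8.55 to 8.62 in A2058 DMSO. The mean of SOX10 was 9.38, 9.53, 9.48 and 9.21 in those groups. In the same order MITF averaged 9.08, 8.35, 10.5 and 9.77, and S100B 10.47, 9.46, 11.05 and 10.96. Of the pigment genes, PMEL averaged 5.07, 4.99, 10.88 and 8.45, and TYR 4.57, 4.57, 11.38 and 10.93. MLANA averaged 4.54, 4.44, 7.08 and 4.75, and TYRP1 5.3, 4.92, 9.33 and 6.06. Of 19 measured markers of fibroblasts, blood, epithelium and endothelium, 15 stayed in the lower 50% of all genes in every group. The exceptions were LUM (means of 6.37 in A375 vemurafenib, 4.22 in A375 DMSO, 6.47 in A2058 vemurafenib and 6.88 in A2058 DMSO), LYZ (6.56, 7.83, 4.79 and 6.91 in the same order), KRT18 (8.48, 10.26, 7.46 and 8.87) and KDR (6.78, 6.91, 5.06 and 5.70). The part of lineage or other markers in the results below was not tested. In cell extracts of this kind, fewer cells that make an RNA and less RNA per cell cannot be told apart.

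**Figure D1:**
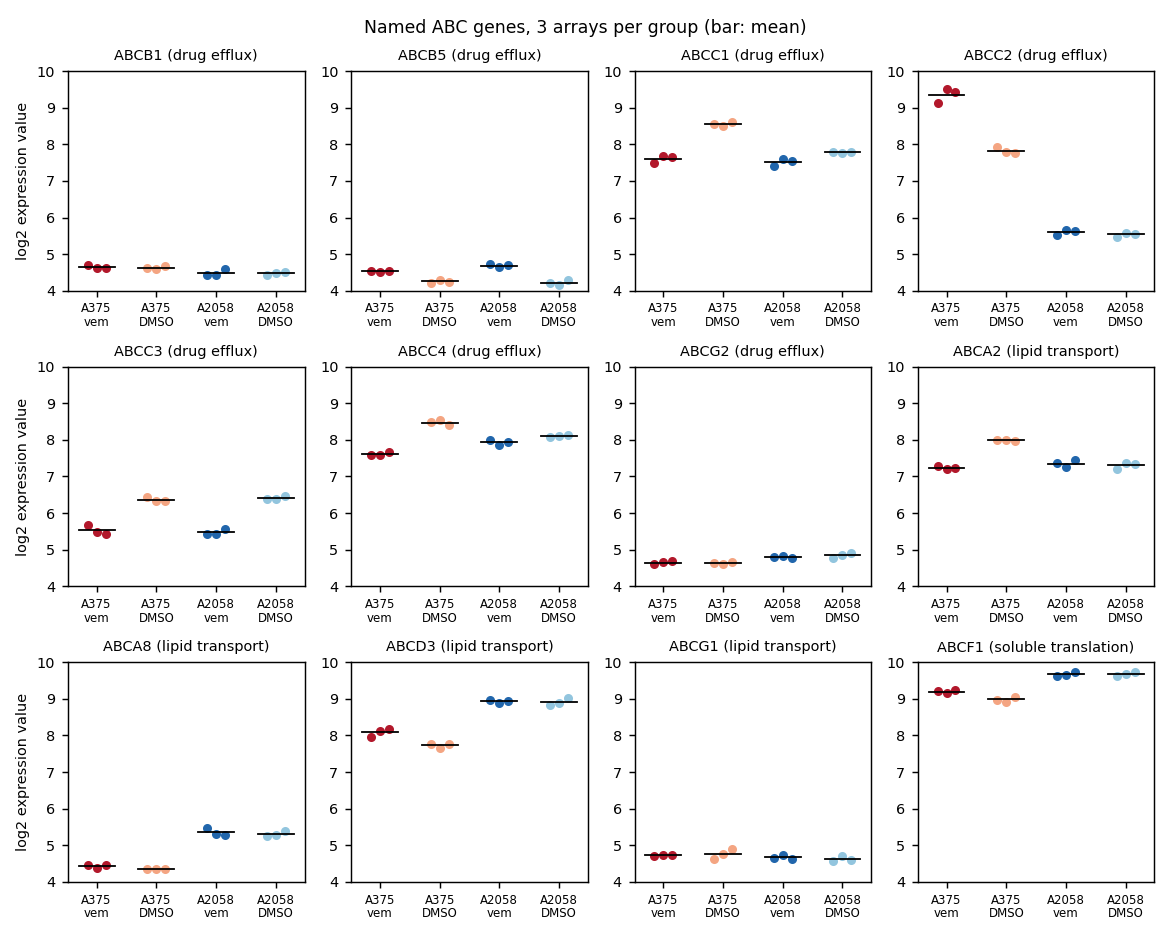
Log2 expression values (y axis) of the 12 ABC genes described array by array, in A375 and A2058 with vemurafenib (vem) or DMSO; points are arrays, 3 per group, and bars are group means. ABCC2 separates the lines and is highest in A375 with vemurafenib at 9.14 to 9.50, while ABCB1, ABCG2 and ABCG1 lie between 4.43 and 4.91 in all groups.

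The first comparison asked how the family responds to vemurafenib in A375. The canalicular conjugate exporter ABCC2 rose 2.88-fold, and the conjugate and drug exporters ABCC1, ABCC4 and ABCC3 and the endolysosomal lipid transporter ABCA2 fell by 1.69-fold to 1.95-fold. These 5 were the only members called with a change of at least 1.5-fold, which 10.2% of all genes met. In all, 12 of 42 members were called up and 5 down, where 17.7% of all genes were called up and 19.3% down. Together that is 40.5% of the family, against 37.0% of all genes called in this comparison. The median difference was 0.01 for the members and 0.0 for all genes. Of the 25 members above the lower quartile 56.0% were called, and of the 17 at or below it 17.6%. A fit without genes at or below that quartile called 6540 of 13803 genes. By role, 3 of 10 drug efflux genes were called up and 3 down, and 5 of 19 lipid transport genes up and 2 down.

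ABCC2, which secretes glucuronide and glutathione conjugates into bile in hepatocytes, read 9.14, 9.50 and 9.42 in A375 vemurafenib arrays and 7.92, 7.78 and 7.76 in A375 DMSO arrays. The groups are far apart, although the lowest treated value is that of replicate 1, the array that stood apart. The rise was 1.53 ± 0.082 (adjusted p = 9.5e-09). ABCC1, which exports glutathione conjugates and anticancer drugs, read 7.48, 7.68 and 7.64 in A375 vemurafenib and 8.55, 8.51 and 8.62 in A375 DMSO. All treated arrays lay below all DMSO arrays, and the change was -0.96 ± 0.064 (adjusted p = 7.86e-08). ABCC4, an exporter of cyclic nucleotides and prostaglandins, read 7.60, 7.59 and 7.67 in A375 vemurafenib and 8.48, 8.53 and 8.41 in A375 DMSO. Again the groups did not overlap, with a change of -0.85 ± 0.047 (adjusted p = 1.27e-08). ABCC3, which exports glucuronides and bile salts, read 5.67, 5.48 and 5.44 in A375 vemurafenib and 6.44, 6.33 and 6.33 in A375 DMSO. Every treated array was lower, and the change was -0.83 ± 0.063 (adjusted p = 2.65e-07).

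ABCB5, the melanoma antigen named above, read 4.54, 4.52 and 4.55 in A375 vemurafenib and 4.21, 4.30 and 4.25 in A375 DMSO. Its treated arrays all lay higher, by 0.28 ± 0.044 (adjusted p = 0.000186), at the dim end of the scale. The taxane exporter ABCC10 was called up by 0.20 ± 0.064 (adjusted p = 0.0288). That call was lost without A375 DMSO replicate 2 (0.14, adjusted p = 0.139) or A375 vemurafenib replicate 1 (0.15, adjusted p = 0.0824). It was also lost in a fit of only the A375 arrays (adjusted p = 0.0667). P-glycoprotein, ABCB1, the best known multidrug exporter, read 4.69, 4.61 and 4.63 in A375 vemurafenib and 4.61, 4.60 and 4.68 in A375 DMSO. The groups overlapped, with a difference of 0.013 ± 0.051 (adjusted p = 0.894) and a 95% interval of -0.10 to 0.12. The breast cancer resistance protein ABCG2 read 4.60, 4.66 and 4.68 in A375 vemurafenib and 4.63, 4.62 and 4.66 in A375 DMSO. These overlapped as well (0.012 ± 0.043, adjusted p = 0.887, interval -0.08 to 0.11). ABCC5 and ABCC11 were not called either.

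Among lipid transporters in A375, ABCA2, which acts on sterols and sphingolipids in endosomes and lysosomes, read 7.29, 7.2 and 7.22 in vemurafenib arrays and 8.01, 8.0 and 7.97 in DMSO arrays. Its groups were well apart, and the change was -0.75 ± 0.057 (adjusted p = 2.92e-07). ABCB4, the phosphatidylcholine floppase of bile, was called up by 0.44 ± 0.071 (adjusted p = 0.000235), and its sequence is close to that of ABCB1, and cross-hybridisation between them was not tested. The peroxisomal fatty acid importer ABCD3 read 7.96, 8.12 and 8.19 in A375 vemurafenib and 7.78, 7.66 and 7.78 in A375 DMSO. All treated arrays were higher, by 0.35 ± 0.067 (adjusted p = 0.000941). Rises were also called for the lysosomal ABCA5 (0.35 ± 0.079), the phospholipid transporter ABCA7 (0.24 ± 0.071, adjusted p = 0.0167) and the epidermal lipid transporter ABCA12 (0.15 ± 0.033), and a small fall for ABCA6 (-0.14 ± 0.042, adjusted p = 0.0166). Without A375 DMSO replicate 2, the calls of ABCA7 (0.20, adjusted p = 0.0757) and ABCA6 (-0.11, adjusted p = 0.0853) were lost. Both were also lost in a fit of only the A375 arrays (adjusted p = 0.0596 for ABCA7 and 0.069 for ABCA6). The sterol exporter ABCG1 read 4.72, 4.73 and 4.73 in A375 vemurafenib and 4.64, 4.75 and 4.89 in A375 DMSO. The treated arrays lay inside the DMSO range (-0.035 ± 0.059, adjusted p = 0.743).

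Of the remaining members in A375, the lysosomal peptide transporter ABCB9 was called up by 0.41 ± 0.073 (adjusted p = 0.000531). The soluble proteins ABCF1, ABCF2 and ABCF3 were called up by 0.21 ± 0.048, 0.26 ± 0.053 and 0.21 ± 0.044, and the ribosome recycling factor ABCE1 was not called. ABCF1, which takes part in translation initiation, read 9.21, 9.16 and 9.23 in A375 vemurafenib and 8.98, 8.92 and 9.06 in A375 DMSO, with all treated arrays higher. None of the 3 mitochondrial members ABCB6, ABCB8 and ABCB10, the sulfonylurea receptors ABCC8 and ABCC9 or ABCC12 and ABCC13 was called. Without A375 vemurafenib replicate 1, 11 members were called up and 5 down, which is 38.1% of members against 42.3% of all genes, so the members' share then lay below that of all genes.

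Promoter windows were held for 3 of the 5 genes that changed by at least 1.5-fold, and they are shown because these genes moved in opposite directions in A375. Each window spans 250 bases before to 50 bases after a RefSeq start in GRCh38.p14, given 5′ to 3′ on the gene's strand. ABCC2 is at chr10:99782390-99782689 on the plus strand, ABCC4 at chr13:95301402-95301701 on the minus strand, and ABCA2 has windows at chr9:137028873-137029172 and chr9:137028188-137028487 on the minus strand. Capitals mark matches on either strand to an ETS core (CCGGAA), an AP-1 site (TGANTCA), an E-box (CACGTG), an M-box core (CATGTG) or a GC box (GGGCGG). For the M-box only these core letters were searched, not the bases beside them.
ABCC2: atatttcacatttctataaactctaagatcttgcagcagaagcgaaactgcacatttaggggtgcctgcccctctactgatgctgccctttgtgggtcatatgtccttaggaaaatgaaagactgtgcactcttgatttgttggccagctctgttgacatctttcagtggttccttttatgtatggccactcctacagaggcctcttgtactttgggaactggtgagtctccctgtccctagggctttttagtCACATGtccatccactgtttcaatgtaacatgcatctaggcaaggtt
ABCC4: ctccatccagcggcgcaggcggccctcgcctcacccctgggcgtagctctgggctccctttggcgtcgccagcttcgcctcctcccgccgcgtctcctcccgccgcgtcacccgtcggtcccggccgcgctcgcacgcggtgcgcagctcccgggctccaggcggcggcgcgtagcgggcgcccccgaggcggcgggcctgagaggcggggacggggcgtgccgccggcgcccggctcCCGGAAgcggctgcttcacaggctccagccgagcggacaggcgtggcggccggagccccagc
ABCA2, upstream window: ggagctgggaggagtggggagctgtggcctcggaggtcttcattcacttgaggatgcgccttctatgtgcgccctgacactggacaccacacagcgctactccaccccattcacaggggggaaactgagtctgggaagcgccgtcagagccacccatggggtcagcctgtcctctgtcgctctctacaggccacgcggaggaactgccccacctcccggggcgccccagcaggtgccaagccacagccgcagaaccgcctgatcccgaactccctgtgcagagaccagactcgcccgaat
ABCA2, second window: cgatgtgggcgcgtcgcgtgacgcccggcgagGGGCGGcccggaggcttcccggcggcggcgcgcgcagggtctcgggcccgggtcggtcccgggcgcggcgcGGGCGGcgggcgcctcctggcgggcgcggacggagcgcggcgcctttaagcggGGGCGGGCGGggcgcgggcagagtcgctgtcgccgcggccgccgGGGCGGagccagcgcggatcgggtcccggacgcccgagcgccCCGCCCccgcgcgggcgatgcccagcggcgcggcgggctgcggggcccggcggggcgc
The ABCC2 window held 1 M-box core, starting at base 4 after the start, and the ABCC4 window 1 ETS core. The second ABCA2 window held 6 GC boxes, a pair of which overlap each other. Over the 50 windows held for 33 members, an ETS core was present in 16.0%, an AP-1 site in 6 windows, an E-box in 16.0%, an M-box in 8.0% and a GC box in 48.0%. Over all 35116 windows of the same length the shares were 17.2%, 7.71%, 7.26%, 11.1% and 45.0%. A match is a run of letters in this window and was not tied to any factor or to the changes.

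The same question was put to A2058. ABCC3 fell 1.91-fold and was the only member called with a change of at least 1.5-fold, which 5.42% of all genes met. ABCB5 rose 1.38-fold, and ABCE1 fell by 0.49 on the log2 scale. Here 7 of 42 members were called up and 6 down, against 14.6% and 12.5% of all genes. Both directions together made 31.0% of the family against 27.1% of all genes. The median difference was -0.02 for the members and 0.01 for all genes. Of the 25 members above the lower quartile 44.0% were called, and of the 17 at or below it 11.8%. A fit without genes at or below that quartile called 4921 of 13803 genes. Drug efflux genes split into 3 rises and 3 falls among 10, and of 19 lipid transport genes 2 were called up and 1 down.

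ABCC3 read 5.43, 5.43 and 5.57 in A2058 vemurafenib and 6.38, 6.39 and 6.46 in A2058 DMSO. The treated arrays lay far below, with a change of -0.93 ± 0.063 (adjusted p = 1.85e-07). ABCB5 read 4.72, 4.64 and 4.69 in A2058 vemurafenib and 4.21, 4.16 and 4.29 in A2058 DMSO. All treated arrays were higher, and the rise was 0.47 ± 0.044 (adjusted p = 4.41e-06). ABCC1 read 7.40, 7.61 and 7.55 in A2058 vemurafenib and 7.78, 7.75 and 7.80 in A2058 DMSO. Its treated arrays were all lower, but the change was small (-0.26 ± 0.064, adjusted p = 0.00857). ABCC4 read 7.99, 7.86 and 7.95 in A2058 vemurafenib and 8.09, 8.11 and 8.14 in A2058 DMSO. This too was a small fall without overlap (-0.18 ± 0.047, adjusted p = 0.0108), and the call was lost without A2058 vemurafenib replicate 2 (-0.14, adjusted p = 0.0563).

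ABCC2 read 5.53, 5.65 and 5.63 in A2058 vemurafenib and 5.48, 5.59 and 5.55 in A2058 DMSO. These overlapped, with a difference of 0.062 ± 0.082 (adjusted p = 0.716) and a 95% interval of -0.12 to 0.24. The nucleotide analogue exporter ABCC5 rose by 0.35 ± 0.053 (adjusted p = 0.000229). ABCC10 was called up by 0.23 ± 0.064 (adjusted p = 0.0168), a call that needed A2058 DMSO replicate 3 (0.18 without it, adjusted p = 0.0777) and A2058 vemurafenib replicates 2 (0.23, adjusted p = 0.0519) and 3 (0.21, adjusted p = 0.0646). ABCB1 read 4.43, 4.44 and 4.60 in A2058 vemurafenib and 4.43, 4.49 and 4.51 in A2058 DMSO, which overlap (0.015 ± 0.051, adjusted p = 0.91). ABCG2 read 4.79, 4.82 and 4.77 in A2058 vemurafenib and 4.78, 4.87 and 4.91 in A2058 DMSO. This difference was within the spread between arrays (-0.062 ± 0.043, adjusted p = 0.386).

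Of the 19 lipid transporters 3 were called in A2058, or 15.8%, against 27.1% of all genes. Several of them, such as ABCA4, ABCA9 and ABCG1, are among the 17 dim members, of which 11.8% were called, but so is ABCA6, which was called. Brighter ones such as ABCA2 and ABCD3 were not called either. Any part of dimness in this share was not tested. ABCA5 rose by 0.44 ± 0.079 (adjusted p = 0.000919), ABCA6 fell (-0.19 ± 0.042, adjusted p = 0.00499), and ABCA7 was called up by 0.22 ± 0.071 (adjusted p = 0.0334). For ABCA7 the adjusted p became 0.12 on leaving out A2058 DMSO replicate 1, 0.088 on leaving out A2058 DMSO replicate 3, 0.13 on leaving out A2058 vemurafenib replicate 2 and 0.0788 on leaving out replicate 3 of that group. It was also 0.0636 with the replicate number as a block and 0.0574 with all probe sets tested. ABCA2 read 7.36, 7.25 and 7.44 in A2058 vemurafenib and 7.2, 7.36 and 7.35 in A2058 DMSO. The groups overlapped (0.045 ± 0.057, adjusted p = 0.703). ABCD3 read 8.98, 8.90 and 8.95 in A2058 vemurafenib and 8.83, 8.88 and 9.03 in A2058 DMSO, also overlapping (0.034 ± 0.067, adjusted p = 0.83). ABCG1 read 4.66, 4.73 and 4.64 in A2058 vemurafenib and 4.58, 4.71 and 4.59 in A2058 DMSO, again overlapping (0.046 ± 0.059, adjusted p = 0.705). Outside these roles, ABCE1, which splits ribosomes after termination, fell (-0.49 ± 0.088, adjusted p = 0.00101), as did ABCF2 (-0.27 ± 0.053, adjusted p = 0.00162). The lysosomal cobalamin transporter ABCD4 rose by 0.33 ± 0.060 and the mitochondrial ABCB8 by 0.24 ± 0.058. Without A375 vemurafenib replicate 1, which enters through the shared spread, 8 members were called up and 6 down, 33.3% against 32.3% of all genes, and ABCF3 passed as well (0.12, adjusted p = 0.0464). ABCF3 also passed without A2058 vemurafenib replicate 3 (0.16, adjusted p = 0.0201).

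**Figure D2:**
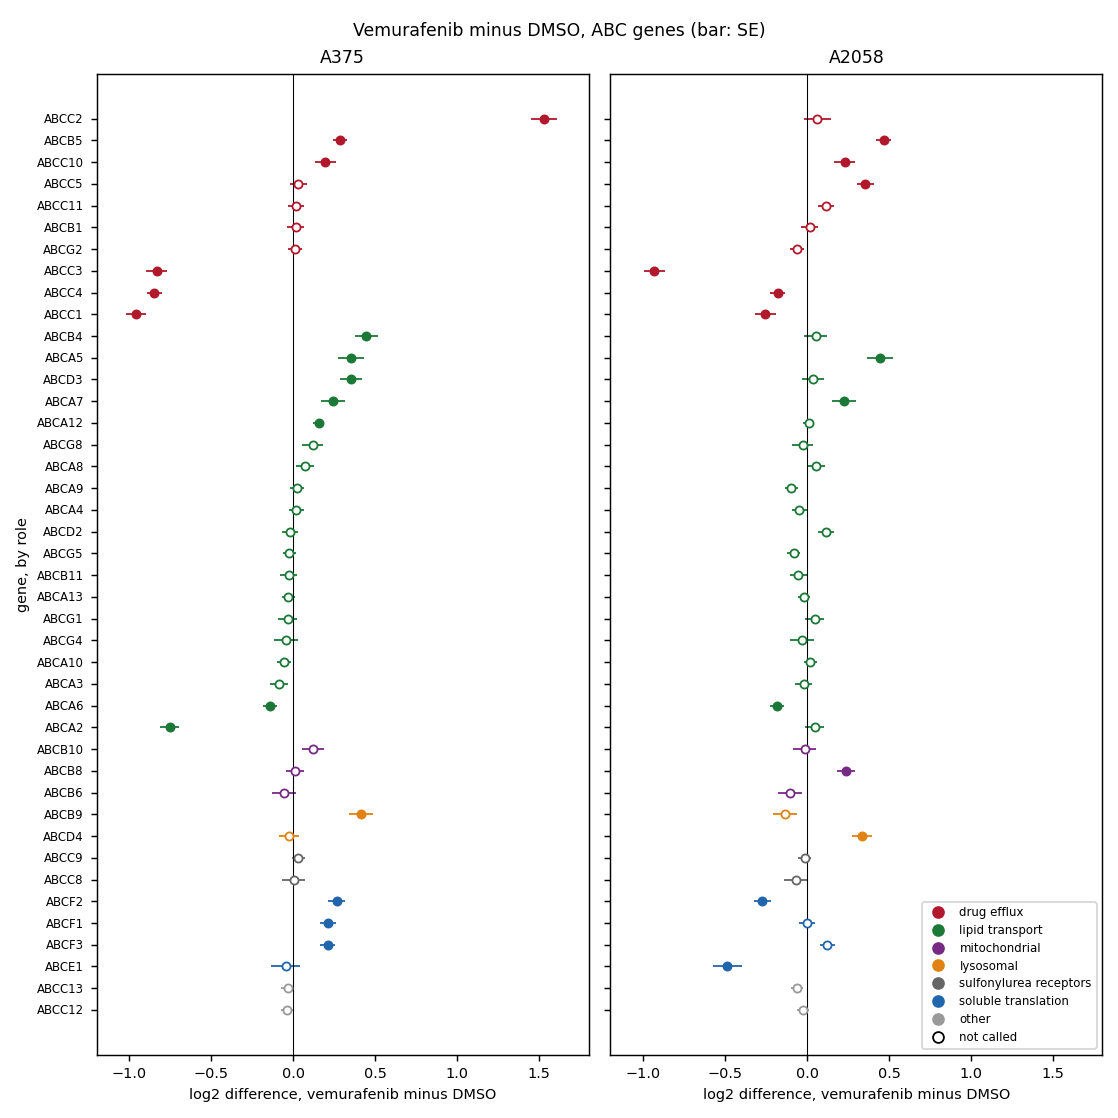
Log2 difference, vemurafenib minus DMSO (x axis), of all 42 ABC genes in A375 (left) and A2058 (right), ordered by role; bars are SE from limma and filled points were called at adjusted p under 0.05. ABCC2 stands at 1.53 in A375 and 0.062 in A2058, while ABCC3 is low in both panels.

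Across the lines, 8 members were called in the same direction in both: ABCB5, ABCC10, ABCA5 and ABCA7 up, and ABCC1, ABCC3, ABCC4 and ABCA6 down. They make up 19.0% of the family, against 13.4% of all genes called alike in both lines, 6.52% up and 6.85% down. The count was 5 members, or 11.9%, without A375 DMSO replicate 2 (12.2% of all genes), without A2058 vemurafenib replicate 2 (11.6%) or in fits of only the arrays compared (13.2%), so the members' share was then close to that of all genes. As a share of the lists, they were 47.1% of the members called in A375 and 61.5% of those called in A2058, where all genes gave 36.1% and 49.3%. ABCF2 was the only member called in opposite directions, which held for 4.41% of all genes.

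The next comparison tested whether the responses differ between the lines, as A375 response minus A2058 response. This difference was called for 14 of 42 members, 8 positive and 6 negative, or 33.3% against 29.5% of all genes, of which 13.1% were positive and 16.4% negative. At 1.5-fold or more stood 4 members, ABCC2, ABCA2, ABCC1 and ABCC4, against 10.5% of all genes. The positive calls numbered 5 instead of 8 without A375 DMSO replicate 2, A375 vemurafenib replicate 3 or A2058 vemurafenib replicate 2. ABCC2 had by size the largest difference (1.47 ± 0.12, adjusted p = 7.77e-07), having risen in A375 while its A2058 groups overlapped. ABCA2 (-0.80 ± 0.081, adjusted p = 7.77e-06), ABCC1 (-0.70 ± 0.090, adjusted p = 5.88e-05) and ABCC4 (-0.67 ± 0.066, adjusted p = 6.3e-06) had the more negative response in A375. For ABCC3 the responses were -0.83 in A375 and -0.93 in A2058, and their difference was not called (0.097 ± 0.089, adjusted p = 0.52, interval -0.10 to 0.29). The soluble proteins ABCF2 (0.54 ± 0.075) and ABCE1 (0.44 ± 0.13) were higher in the A375 response, as was ABCB9 (0.55 ± 0.10), and ABCD4 (-0.36 ± 0.084) and ABCC5 (-0.32 ± 0.075) were lower.

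The untreated lines were compared next. The sample numbers of A375 and A2058 form separate runs. Differences between the lines, here and under vemurafenib, cannot be told apart from any difference in handling between those runs. Under DMSO, ABCC2 was 4.86-fold higher in A375, ABCC1 1.72-fold and ABCA2 1.61-fold higher, while ABCD3 was 2.25-fold, ABCA8 1.93-fold and ABCF1 1.61-fold lower. Of 42 members, 10 were called higher and 12 lower in A375, which is 52.4% against 46.4% of all genes, of which 23.9% were higher and 22.5% lower. The 6 genes just named were also those called at 1.5-fold or more, as were 16.2% of all genes. Among drug efflux genes 4 were higher and 1 lower of 10, and among lipid transport genes 5 were higher and 5 lower of 19. All 4 soluble proteins of translation were lower in A375, with a median of -0.34, and of the 3 mitochondrial members ABCB6 (-0.34 ± 0.072) and ABCB8 (-0.52 ± 0.058) were lower.

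The array values for ABCC2 under DMSO, given above, ran from 7.76 to 7.92 in A375 and from 5.48 to 5.59 in A2058. The difference was 2.28 ± 0.082 (adjusted p = 1.83e-10). ABCC1 differed by 0.78 ± 0.064 (adjusted p = 3.63e-07) and ABCA2 by 0.69 ± 0.057 (adjusted p = 4.74e-07), each with all A375 arrays above all A2058 arrays. ABCD3 differed by -1.17 ± 0.067 (adjusted p = 1.38e-08). ABCA8, a lipid transporter of subfamily A, read 4.36, 4.36 and 4.36 in A375 DMSO and 5.25, 5.28 and 5.38 in A2058 DMSO. In A375 it sat below the lower quartile of 4.81, so that the 1.93-fold difference is against a dim group and may be compressed. The difference was -0.94 ± 0.053 (adjusted p = 1.1e-08). It did not pass the test for vemurafenib in either line (0.071 ± 0.053 in A375 and 0.053 ± 0.053 in A2058), with treated values of 4.46, 4.38 and 4.45 in A375 and 5.47, 5.31 and 5.29 in A2058. ABCF1 read 8.98, 8.92 and 9.06 in A375 DMSO and 9.62, 9.68 and 9.72 in A2058 DMSO, a clear gap (-0.69 ± 0.048, adjusted p = 9.33e-08). It read 9.63, 9.65 and 9.74 in A2058 vemurafenib, inside or beside the DMSO values (-0.0018 ± 0.048, adjusted p = 0.99).

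Of the dim drug efflux genes under DMSO, ABCG2 was lower in A375 (-0.22 ± 0.043, adjusted p = 0.000919) and ABCB1 higher (0.15 ± 0.051, adjusted p = 0.0239). The ABCB1 call was lost without A375 DMSO replicate 3 (0.13, adjusted p = 0.0926) or A2058 DMSO replicate 1 (0.13, adjusted p = 0.0897). ABCG1 was not called (0.13 ± 0.059, adjusted p = 0.0974) but passed without A375 DMSO replicate 1 (0.19, adjusted p = 0.0193) or A2058 DMSO replicate 2 (0.17, adjusted p = 0.0469). ABCC4 was higher in A375 by 0.36 ± 0.047 (adjusted p = 2.87e-05), and ABCB5 (0.032 ± 0.044) and ABCC3 (-0.044 ± 0.063) were not called.

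The lines were also compared under vemurafenib. ABCC2 was 13.4-fold higher in A375 (3.75 ± 0.082, adjusted p = 1.28e-12), ABCB4 was higher by 0.74 ± 0.071 and ABCB9 by 0.64 ± 0.073. The ABCB4 mean in A2058 vemurafenib was 4.57, below the lower quartile of 4.81, so its difference may be a compressed one. ABCA8 (-0.93 ± 0.053), ABCD3 (-0.85 ± 0.067) and ABCB8 (-0.75 ± 0.058) were lower. In all, 7 members were called higher and 11 lower in A375, 42.9% against 46.9% of all genes, of which 22.7% were higher and 24.2% lower. The 6 genes just named were those at 1.5-fold or more, against 16.8% of all genes. ABCC1 and ABCA2 were not called here, at 0.081 ± 0.064 (adjusted p = 0.361, interval -0.06 to 0.22) and -0.11 ± 0.057 (adjusted p = 0.135, interval -0.24 to 0.01), although ABCA2 passed without A2058 vemurafenib replicate 2 (-0.16, adjusted p = 0.0417). ABCC4 was lower in A375 under the drug (-0.31 ± 0.047, adjusted p = 9.57e-05), the opposite of its DMSO difference. Among dim members, ABCB5 (-0.15 ± 0.044, adjusted p = 0.0136) and ABCG2 (-0.14 ± 0.043, adjusted p = 0.0143) were lower and ABCB1 higher (0.15 ± 0.051, adjusted p = 0.0251) in A375. Each of these calls rested on single arrays. For ABCB5 the adjusted p was 0.0584 without A2058 vemurafenib replicate 1, and for ABCG2 it was 0.0553 without A2058 vemurafenib replicate 2. For ABCB1 it was 0.0621 without A375 vemurafenib replicate 1, 0.105 without A2058 vemurafenib replicate 1 and 0.104 without A2058 vemurafenib replicate 2. In a fit of only the vemurafenib arrays, the adjusted p of ABCB1 was 0.0839. Comparisons of the lines and of the treatments share arrays, so these differences are not independent of the responses above. Without A375 vemurafenib replicate 1, 8 of 42 members were called higher and 13 lower, where 52.6% of all genes were called.

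**Figure D3:**
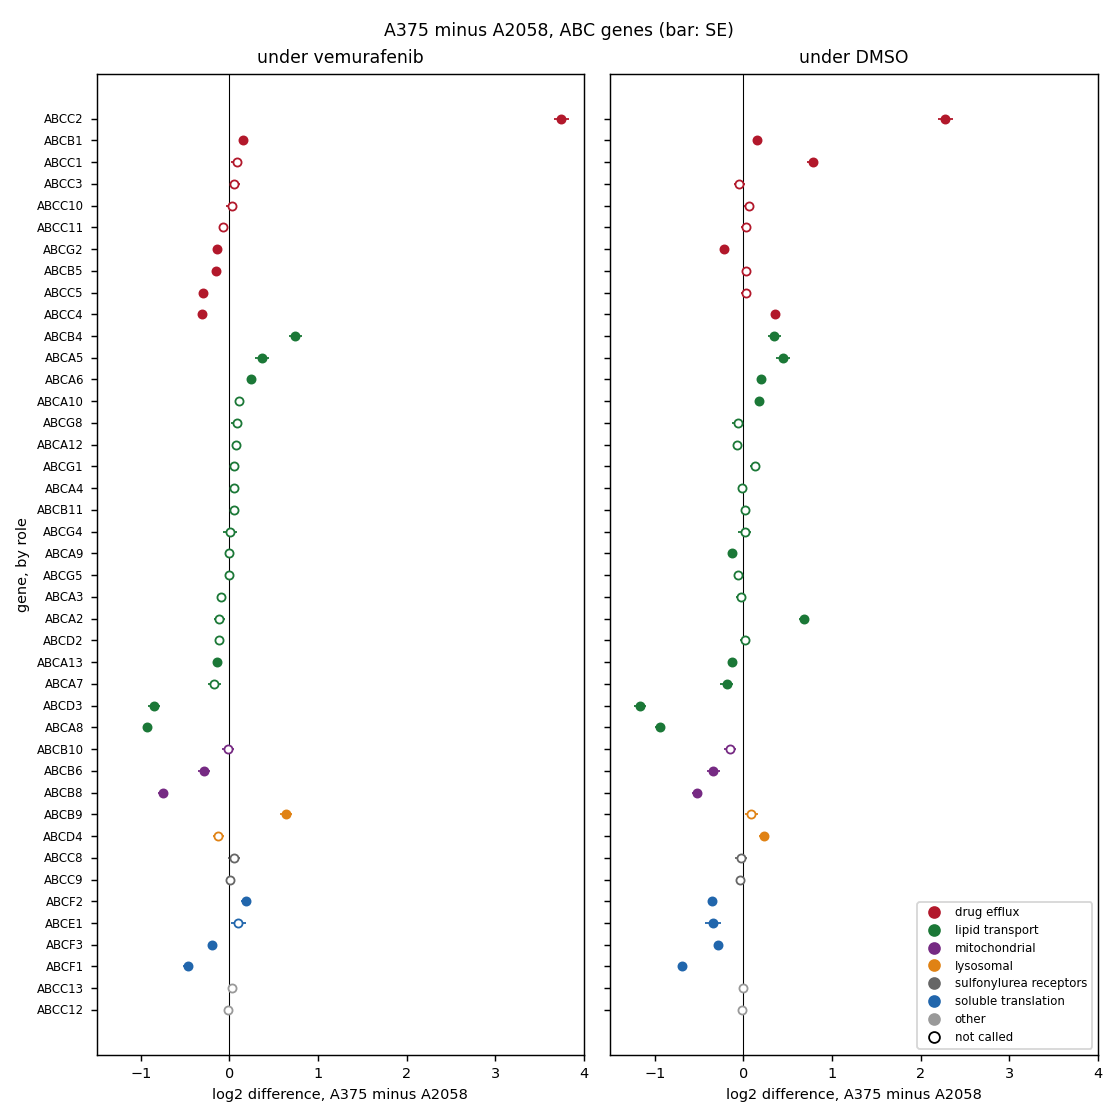
Log2 difference, A375 minus A2058 (x axis), of all 42 ABC genes under vemurafenib (left) and under DMSO (right), ordered by role; bars are SE from limma and filled points were called at adjusted p under 0.05. ABCC2 reaches 3.75 under vemurafenib and 2.28 under DMSO, whereas ABCC1 and ABCA2 are filled under DMSO and open under vemurafenib.

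Genes that work beside the family were taken from short lists written from general knowledge, but with earlier results of these data known. Their counts are to be read against the 37.0% of all genes called in A375 and the 27.1% called in A2058. Of 17 measured genes of glutathione supply and conjugation, whose products ABCC1 and ABCC2 export, 6 were called up and 6 down in A375 and 6 up and 3 down in A2058, with medians of 0.03 and 0.05. The cystine transporter SLC7A11 changed most in both (-1.2 ± 0.054 in A375 and -1.62 ± 0.054 in A2058). Of 19 receptors and factors known to control ABC genes, 6 were called up and 8 down in A375, with the lipid receptor PPARG at -1.5 ± 0.15 and the melanocyte factor MITF at 0.73 ± 0.047. In A2058, 5 were called up and 4 down, with MITF at 0.73 ± 0.047 and the xenobiotic receptor AHR at -0.64 ± 0.048. The response of PPARG was lower in A375 than in A2058 (-1.26 ± 0.215, adjusted p = 0.000597). So was that of SREBF2, a regulator of sterol genes (-0.92 ± 0.061, adjusted p = 1.58e-07).

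Peroxisomal partners of subfamily D had 1 rise and 2 falls among 7 in A375 and 2 rises among 7 in A2058. The thiolase ACAA1 rose by 0.41 ± 0.049 in A375 and 0.27 ± 0.049 in A2058. PEX5 fell in A375 (-0.39 ± 0.064), and the largest called change in A2058 was that of HSD17B4 (0.43 ± 0.060). Among 12 heme and iron-sulfur genes, 3 were called up and 6 down in A375 and 2 up and 2 down in A2058. The mitochondrial iron importer SLC25A37, mitoferrin, fell in both (-1.12 ± 0.051 and -1.15 ± 0.051), while its relative SLC25A28 rose in A375 (0.78 ± 0.063) and the heme synthesis enzyme ALAD in A2058 (1.0 ± 0.059). Of 8 ribosome recycling and GCN genes that act with ABCE1 and the subfamily F proteins, 2 were called up and 2 down in A375 and 0 up and 4 down in A2058. The largest of the A2058 falls were those of the initiation factor subunit EIF2S2 (-0.40 ± 0.043) and the termination factor ETF1 (-0.30 ± 0.051). The channel pores KCNJ8 and KCNJ11, partners of ABCC8 and ABCC9, were not called in either line.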

How the data were processed

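Total RNA was measured on 12 Affymetrix whole-transcript gene arrays. The authors deposited log2 expression values for 32321 probe sets, between 3.24 and 13.08, a scale read from the values themselves. Per the submitters' processing notes R 3.0.1 and the affy package were used, and how background was corrected and probes summarised is not given in the sources used here. Array medians lay between 5.19 and 5.30, and nothing was rescaled. Precision is limited by how many arrays there are. Of the probe sets, 19158 had 1 gene symbol, 1388 several and 11775 none in the platform annotation. For 19128 of those with 1 symbol, the Entrez number was matched in RefSeq (GRCh38.p14), whose symbol was used. The probe set of highest mean over 12 arrays stood for each of 18404 genes; ABCB8 alone among the members had several. No array copied another.

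One limma 3.58.1 model (R 4.3.3) fitted the 4 group means on all 12 arrays (8 residual and 3.98 prior degrees of freedom), with two-sided tests adjusted by Benjamini-Hochberg over all genes. Genes are given array by array if called with at least a 1.5-fold change in either response, if among the 3 largest called differences of each sign between the lines under DMSO, or if they are ABCB1, ABCB5, ABCC1, ABCC4, ABCG2, ABCA2 or ABCG1, apart from genes not reported here. Members, role lists and neighbour lists were chosen with earlier results of these data known. Alternatives covered scaling, probe sets, dim genes, prior, array weights, a replicate block and each array left out. The fit was tested on simulated data with independent normal noise and 50 genes changed at each size. It recovered all log2 changes of 1 or 2, 88% to 92% of those of 0.5 and 42% to 56% of those of 0.25. False calls were 11 of 185, 5 of 170 and 6 of 174. Far fewer genes changed there than in these data and no array stood apart, so such settings were not tested.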

Additional observations from a re-analysis of the deposited data

Results flagged for a closer look

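For 14 ABC genes the vemurafenib response differed between the lines by the test of that difference (A375 response minus A2058 response, limma, adjusted p under 0.05). Groups of 3 arrays are too small for a test of single outlying arrays. The positive differences were 1.47 for ABCC2, 0.55 for ABCB9, 0.54 for ABCF2, 0.44 for ABCE1, 0.39 for ABCB4, 0.32 for ABCD3, 0.21 for ABCF1 and 0.15 for ABCA12. The negative ones were -0.80 for ABCA2, -0.70 for ABCC1, -0.67 for ABCC4, -0.36 for ABCD4, -0.32 for ABCC5 and -0.18 for ABCB5. Those of ABCA12 and ABCB5 come from dim genes, and each was lost on leaving out any of 8 single arrays (adjusted p of 0.0588 to 0.0769 for ABCA12 and 0.0641 to 0.12 for ABCB5). The ABCB5 call was also lost under quantile normalization (adjusted p = 0.0524), median centring (0.118), with all probe sets tested (0.0603) and with the replicate number as a block (0.0678), and the ABCA12 call under that block (0.0629). The ABCF1 call was lost under quantile normalization (0.0588). The ABCF1 difference was lost on leaving out any of 7 arrays and the ABCD3 difference on leaving out any of 4.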

How the results depend on the processing

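Results were recomputed under 10 other settings and with each of the 12 arrays left out. Requiring at least a 1.5-fold change as well left 1 member called up in A375, 0 up and 1 down in A2058, and 1 up and 3 down for the difference of responses. It left 3 up and 3 down between the lines under DMSO and also 3 up and 3 down under vemurafenib. Leaving out single arrays gave 5 to 8 positive calls for the difference of responses, and the other counts of called members stayed within 1.5 times. Over single members no direction reversed among called values. Of 2520 member results with an array left out, 58 lost their call and 14 gained one, and of 1763 under other settings 15 lost it and 21 gained one. With the replicate number as a block, members called up and down were 12 and 5 in A375, 6 and 6 in A2058, 7 and 5 for the difference of responses, 10 and 11 between the lines under DMSO and 7 and 11 under vemurafenib, where 35.9%, 25.9%, 28.0%, 45.2% and 45.7% of all genes were called in the same order. Same-numbered arrays deviated from their group means with correlations between -0.29 and 0.10, so the numbers were not taken to pair the samples. The cause of these changes was not tested, except that the 1.5-fold rule is stricter by construction. Signal near background limits what can be seen in the 17 dim members, and 3 arrays per group limit the precision throughout.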
